A study of Homo sapiens with 36 samples.

Results

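The nuclear-encoded subunits of the mitochondrial respiratory chain and of ATP synthase were followed in 6 human colon cancer cell lines treated with JQ1 or with its solvent, DMSO. Members were taken by gene symbol, as every gene of the table named NDUFA, NDUFB, NDUFC, NDUFS or NDUFV, SDHA to SDHD, UQCR, COX4 to COX8, ATP5F1, ATP5M or ATP5P, without the NDUFAF assembly factors and without pseudogenes, that reached 1 RPKM (reads per kilobase of transcript, scaled by library size) in at least 3 of 36 libraries. Of 99 loci with such a name, 81 were members: 37 of complex I, 4 of complex II, 9 of complex III, 14 of complex IV and 17 of complex V, which is ATP synthase. They were 81 of the 15542 genes tested and of the 26468 genes in the table. Of the other loci, 8 were pseudogenes, 2 were read-through loci that join a subunit gene to its neighbour, 2 were noncoding RNAs named after a subunit gene, and 6 stayed under the filter. The 6 were COX4I2, COX6A2, COX7A1, COX7B2, COX8C and ATP5MGL, with at most 0.331 RPKM in any library, and COX6A2 was listed at 0 in all 36. Just inside the filter were COX6B2, which reached 1 RPKM in 3 libraries, and NDUFA4L2, which did so in 4.

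JQ1 inhibits the BET proteins, chromatin readers that bind acetylated histones through their bromodomains and promote transcription. The treated groups were HCT116, SW480, HT29, COLO205, HCT15 and COLO320 cells given 0.5 µM JQ1 for 24 h. The control groups were the same 6 lines given DMSO for 24 h. Each of the 12 groups had 3 RNA-seq libraries.

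The respiratory chain passes electrons along the inner mitochondrial membrane to oxygen. Complex I takes them from NADH and complex II from succinate, complex III hands them to cytochrome c, and complex IV reduces oxygen. Complexes I, III and IV pump protons, and ATP synthase uses the gradient to make ATP. Most subunits are nuclear genes, translated in the cytosol and imported, while a small set is encoded by mitochondrial DNA, so each assembled complex other than complex II needs products of both genomes.

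The promoters of 6 members are shown because the results turn on these genes: NDUFA2 and COX6A1 had the largest rises with JQ1, ATP5MC1 and NDUFB4 were among the largest falls, and ATP5PD and SDHB changed in opposite directions in every line. Each sequence is the 200 bases before the annotated start, on the gene's strand, from RefSeq (GRCh38.p14). Capitals mark matches on either strand to GCGCATGC, a part of the site of NRF1, a regulator of respiratory genes, or to CCGGAAG, a core of the sites of ETS factors such as GABPA. The windows lie at chr5:140647631-140647830, minus strand (NDUFA2), chr12:120437913-120438112, plus strand (COX6A1), chr17:75046970-75047169, minus strand (ATP5PD), chr3:120596136-120596335, plus strand (NDUFB4), chr1:17054033-17054232, minus strand (SDHB) and chr17:48892587-48892786, plus strand (ATP5MC1).
NDUFA2: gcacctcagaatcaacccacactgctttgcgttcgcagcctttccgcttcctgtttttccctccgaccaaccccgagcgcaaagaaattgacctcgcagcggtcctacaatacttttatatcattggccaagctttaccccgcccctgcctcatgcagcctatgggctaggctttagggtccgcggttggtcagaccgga
COX6A1: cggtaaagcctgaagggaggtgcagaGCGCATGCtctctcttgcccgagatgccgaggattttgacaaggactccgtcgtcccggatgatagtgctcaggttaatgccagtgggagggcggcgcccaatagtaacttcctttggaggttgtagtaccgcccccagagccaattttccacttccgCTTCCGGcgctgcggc
ATP5PD: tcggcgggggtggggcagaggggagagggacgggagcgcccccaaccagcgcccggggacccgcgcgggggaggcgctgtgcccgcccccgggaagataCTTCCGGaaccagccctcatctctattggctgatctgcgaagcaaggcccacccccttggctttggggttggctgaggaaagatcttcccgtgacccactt
NDUFB4: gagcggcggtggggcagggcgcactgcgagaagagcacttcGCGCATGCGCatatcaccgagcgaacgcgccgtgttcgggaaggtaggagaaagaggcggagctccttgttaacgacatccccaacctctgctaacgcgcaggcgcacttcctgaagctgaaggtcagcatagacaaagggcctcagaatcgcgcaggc
SDHB: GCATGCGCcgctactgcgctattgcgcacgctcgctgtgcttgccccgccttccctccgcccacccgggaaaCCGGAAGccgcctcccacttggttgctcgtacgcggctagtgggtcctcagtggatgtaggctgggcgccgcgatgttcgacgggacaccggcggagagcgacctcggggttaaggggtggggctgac
ATP5MC1: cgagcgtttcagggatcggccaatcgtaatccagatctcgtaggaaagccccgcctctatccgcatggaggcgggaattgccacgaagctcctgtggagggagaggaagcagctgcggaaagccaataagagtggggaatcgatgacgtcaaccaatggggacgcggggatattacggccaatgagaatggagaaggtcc
COX6A1 and SDHB held 1 match to each motif. In NDUFB4 the capitals are 2 overlapping NRF1 matches, 1 on each strand, of a palindromic stretch. ATP5PD held 1 ETS match. NDUFA2 and ATP5MC1 had no capitals in the stretch shown.

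A promoter window was found for 68 of the 81 members, taking the first listed window for the 10 with more than 1. Over the whole window, 250 bases before the start and 50 from it, the NRF1 letters occurred in 13 of the 68 members (19.1%), against 5.33% of the 11426 tested genes with a window and 3.27% of all 27305 promoters in the table. The ETS letters occurred in 20 members (29.4%), against 18.5% of tested genes and 10.7% of all promoters. CACGTG, the E-box bound by MYC and related factors, was found in 7 members (10.3%), against 9.86% of tested genes and 7.44% of all promoters. AAGATGGCG, a YY1 motif, was found in 8 members (11.8%), against 3.77% of tested genes and 1.85% of all promoters. Both strands were searched for each. Among the members with a window that were called in 1 direction in every line, 1 of 9 that rose and 4 of 11 that fell held the NRF1 letters, and 0 of 9 and 2 of 11 held the E-box. A match is a run of letters and not a measured site.

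Sequencing depth was 18.8 to 53.1 M recovered reads per library (median 24.5 M), of which members took 0.75 to 1.01%. The median member had 1443 reads in the library with the fewest and 4164 in the library with the most, and intervals from such counts cover counting error only. Replicates correlated at r of 0.9964 to 0.9979 across genes. Among colon epithelial markers, COLO320 had high CDX2 (847.5 RPKM with JQ1 and 1099 RPKM with DMSO, means of 3 libraries). It had some KRT8 (19.5 and 20.6 RPKM) and KRT18 (29.2 and 35.8 RPKM), and little EPCAM (0.0713 and 1.37 RPKM) and CDH17 (0.323 and 2.68 RPKM). VIL1 and LGALS4 had means of at most 0.0366 RPKM, and KRT19 and CDH1 were listed at 0 in 3 of its libraries each. In the other lines EPCAM means were 133 RPKM or more, but some markers were low there too. With DMSO, HCT116 had VIL1 at 0.106, CDH17 at 0.02 and LGALS4 at 0.181 RPKM, and COLO205 had CDX2 at 0.33 RPKM. The summed markers of fibroblasts, leukocytes and endothelium reached at most 14.6 RPKM in any library. Tests were limma's moderated tests on log2(RPKM + 0.5) over all genes tested, two-sided, with Benjamini-Hochberg adjustment, and calls were made below an adjusted p of 0.05. Log2 changes are JQ1 minus DMSO on that scale, which understates the change of low values.

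The subunit genes were mostly abundant. Of the 81 members, 75 had a median of at least 20 RPKM over the 36 libraries and 27 a median of at least 100. ATP5F1B, the catalytic beta subunit of ATP synthase, had the highest median level, 568 RPKM with a range of 398 to 811. COX8A (324 RPKM), ATP5F1E (299.9), COX4I1 (293) and ATP5F1A (225) came next by median RPKM. The lowest were UQCRFS1 (10.3 RPKM), COX6B2 (0.278) and NDUFA4L2 (0.257). In bulk RNA, fewer cells of a kind and less RNA per cell cannot be told apart, and a level relative to a library's divisor does not show a change of total RNA.

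With JQ1, subunit genes moved in both directions and by little. On average over the 6 lines 27 of the 81 members rose and 39 fell, which is 33.3% and 48.1% of them, against 40.2% of all genes tested called higher and 48.3% called lower. Together 81.5% of members were called, against 88.4% of genes tested. Their median log2 change was -0.02, and that of all genes -0.04. The median size of the change, whatever its sign, was 0.16 for members and 0.26 for all genes on the log2 scale. No member reached a called 2-fold change on average, against 3.18% of genes tested. The calls rest on a small replicate spread: with the cell line as the unit, 10 members rose and 18 fell. Shares of all genes tested, here and below, are those of the test described above. Counts under other settings have no such share beside them.

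**Figure D1:**
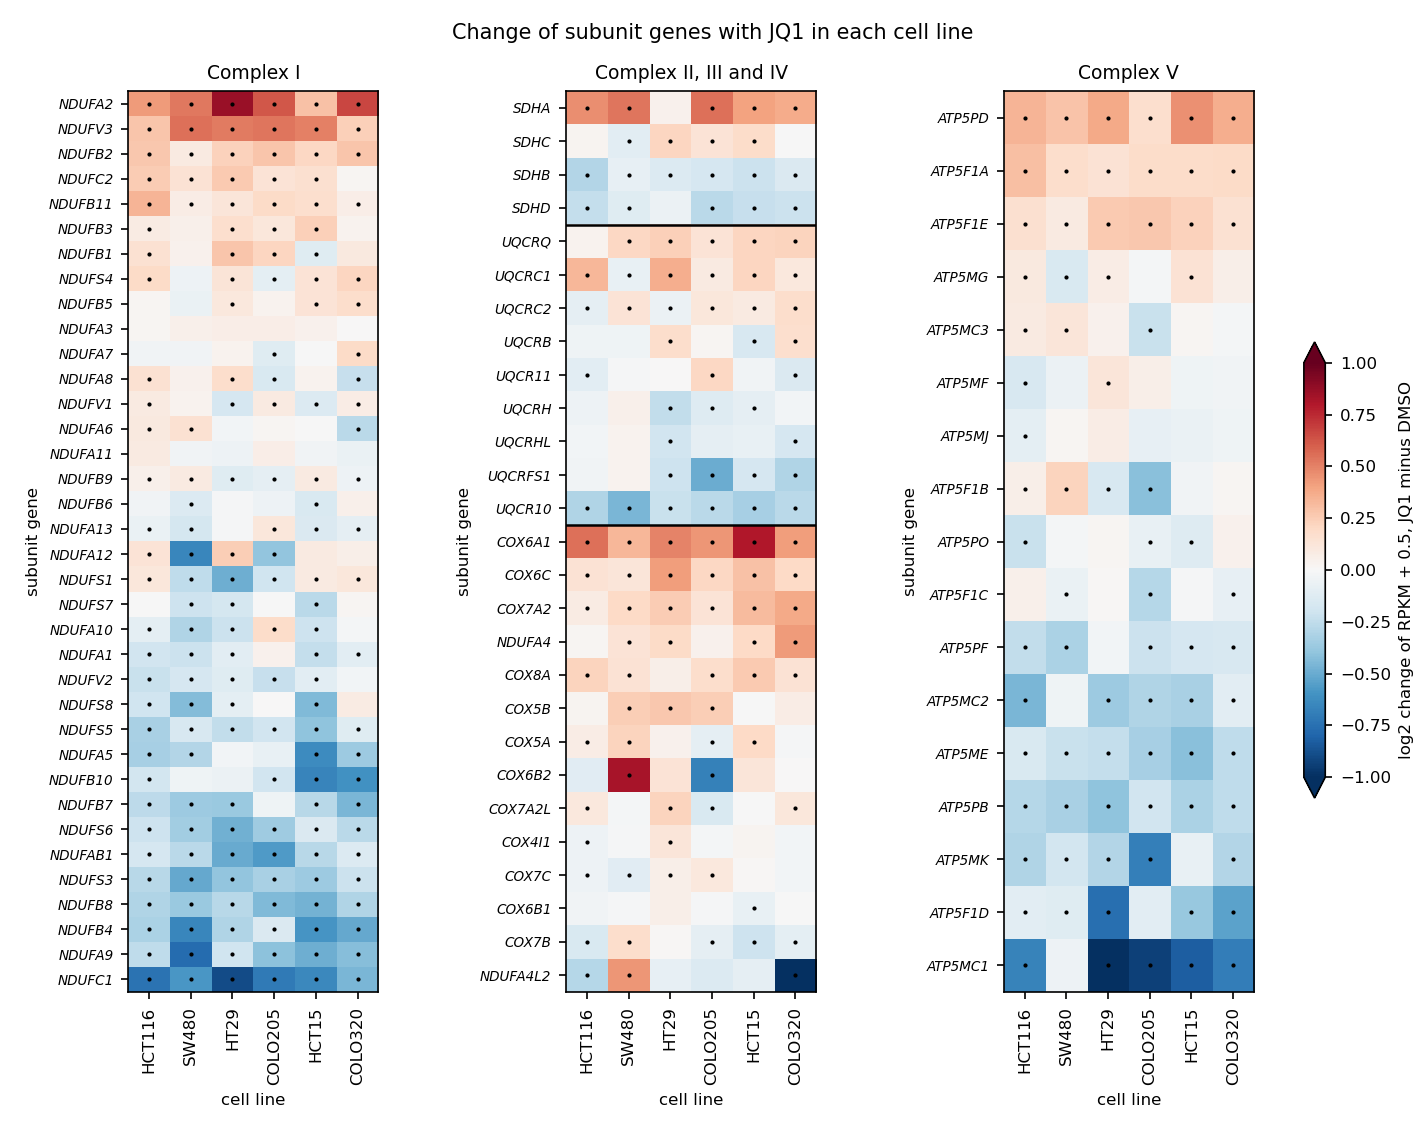
Log2 change of RPKM + 0.5, JQ1 minus DMSO, of 80 subunit genes (down the side, by complex and by average change) in each of 6 cell lines (along the bottom), with n = 3 libraries per group; red is higher and blue lower with JQ1, the colours end at 1 and -1, and a dot marks a call at an adjusted p under 0.05. NDUFA2, COX6A1 and ATP5PD are red and NDUFC1, NDUFA9 and NDUFB4 blue in all 6 columns, while ATP5F1B and NDUFA12 change colour between lines.

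Both directions were called in every line. In HCT116 28 members rose and 36 fell, against 32.4% and 35.5% of genes tested. SW480 had 25 higher and 33 lower (33.9% and 40.1% of genes tested), HT29 28 and 31 (36.6% and 37.3%), and COLO205 25 and 36 (34.2% and 38.6%). HCT15 had 25 higher and 36 lower (34.8% and 35.4%), and COLO320 23 and 33 (31.0% and 37.2%). The median log2 change over members ran from -0.07 in COLO205 to 0.01 in HT29.

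Calls in the same direction in every line were made for 23 subunit genes, 10 higher and 13 lower. Over all genes tested, 11.2% were called higher and 11.7% lower in each of the 6 lines. The members that rose throughout were NDUFA2, NDUFV3, NDUFB2 and NDUFB11 of complex I, COX6A1, COX6C and COX7A2 of complex IV, and ATP5PD, ATP5F1A and ATP5F1E of ATP synthase. Those that fell throughout included NDUFA9, NDUFAB1, NDUFB4, NDUFB8, NDUFC1, NDUFS3, NDUFS5 and NDUFS6 of complex I, SDHB of complex II, UQCR10 of complex III, and ATP5PB and ATP5ME of ATP synthase. Some of these rested on single libraries. COX7A2 lost its call in HCT116 without JQ1 replicate 1, 2 or 3 or DMSO replicate 2 or 3 of that line, and ATP5F1E in SW480 without JQ1 replicate 1 or DMSO replicate 1. NDUFB2 lost its call in SW480 without JQ1 replicate 3, and NDUFS5 in COLO320 without JQ1 replicate 1. With total reads as the divisor 8 rose and 18 fell throughout, ATP5F1E and COX7A2 leaving the first set and ATP5MC1, ATP5MC2, ATP5MK, ATP5PF and SDHD joining the second. SDHB and NDUFS5 left the second set with median centring and with quantile scaling, and NDUFB4 with quantile scaling. The first set lost ATP5F1A and ATP5F1E with quantile scaling and COX7A2 with median centring. ATP5F1E also left it with a replicate block and with lines fitted alone, and COX7A2 with no filter on low values. SDHA joined the first set with both scalings, COX8A joined it with median centring, and ATP5MK joined the second with quantile scaling.

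Complex I, the NADH dehydrogenase, had more falls than rises. Of its 37 members 10 rose and 21 fell on average, with a median log2 change of -0.09, which stayed between -0.06 and -0.12 under the other scalings. Of the 7 nuclear core subunits, which carry the flavin and the iron-sulfur clusters, 0 rose and 6 fell, and of the 30 accessory subunits 10 rose and 15 fell, beside 40.2% of all genes higher and 48.3% lower. By cell line as the unit, 3 genes of complex I rose and 11 fell. The summed level of the 37 genes was lower with JQ1 in each line, with no overlap between groups. In SW480 the sums were 2206, 2178 and 2189 RPKM with JQ1 and 2456, 2378 and 2463 RPKM with DMSO, the smallest ratio of the 6 lines (0.901). HCT116 had the ratio nearest to 1 (0.953), with sums of 2625, 2576 and 2595 RPKM with JQ1 and 2691, 2717 and 2772 RPKM with DMSO. With total reads as divisor the ratios ran from 0.831 in HCT15 to 0.957 in COLO205, again with no overlap. Calls of complex I genes in single lines depended on the scaling. COLO205 had 10 higher and 17 lower (34.2% and 38.6% of genes tested), but 16 and 11 with quantile scaling (median log2 change 0.04). COLO320 had 9 and 17 (31.0% and 37.2%), but 13 and 13 with quantile scaling and with median centring. By line, the 7 core subunits had 0 higher and 7 lower in HT29 (36.6% and 37.3% of genes tested) and 0 and 6 in SW480 (33.9% and 40.1%). They had 2 and 4 in HCT116 (32.4% and 35.5%), 1 and 4 in COLO205 (34.2% and 38.6%), and 1 and 6 in HCT15 (34.8% and 35.4%). COLO320 had 2 and 2 (31.0% and 37.2%), with a median log2 change of 0.02.

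NDUFC1, an accessory subunit of the membrane arm, had the largest fall in complex I, 1.59-fold lower on average (log2 change -0.67, SE 0.0169, adjusted p = 2.01e-24). HT29 cells had 15.8, 16.96 and 15.3 RPKM with JQ1 and 30.6, 30.5 and 29.2 RPKM with DMSO. HCT116 cells had 21.5, 22.7 and 22.5 RPKM with JQ1 and 35.5, 38.8 and 38.2 RPKM with DMSO. COLO320, where the fall was smallest, had 24.3, 23.99 and 23.1 RPKM with JQ1 and 33.1, 33.1 and 32.1 RPKM with DMSO. JQ1 libraries were below DMSO libraries in all 6 lines. NDUFC2, its partner in the same region, went the other way on average (log2 change 0.16, SE 0.013) and was called higher in 5 lines, with COLO320 at 30.3 ± 0.946 RPKM with JQ1 and 29.9 ± 0.818 RPKM with DMSO (SD, n = 3; adjusted p = 0.681). The NDUFC2 locus overlaps the read-through locus NDUFC2-KCTD14, and the sources used here do not state how reads were shared between them. With the cell line as the unit the adjusted p was 0.00112 for NDUFC1 and 0.0843 for NDUFC2.

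NDUFA9 and NDUFB4 fell in every line, most in SW480. NDUFA9, an accessory subunit near the junction of the matrix and membrane arms, had 39.9, 39.1 and 37.8 RPKM with JQ1 and 65.9, 66.6 and 67.3 RPKM with DMSO in SW480 (log2 change -0.77, SE 0.023, adjusted p = 1.07e-21). In HCT116 the log2 change of NDUFA9 was -0.25. NDUFB4, a membrane arm subunit whose promoter holds the NRF1 palindrome shown above, had 22.4, 22.8 and 22.7 RPKM with JQ1 and 33.9, 35.3 and 34.1 RPKM with DMSO in HCT15. COLO205 kept the groups of NDUFB4 closest, at 72.1, 70.97 and 70.01 RPKM with JQ1 and 77.8, 76.1 and 81.6 RPKM with DMSO. The groups did not overlap in any line for either gene. NDUFS3, a core subunit of the quinone module, and NDUFB8, of the membrane arm, had average log2 changes of -0.35 and -0.36, and NDUFAB1, the acyl carrier protein that also serves mitochondrial fatty acid synthesis, -0.32.

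NDUFA2 had the largest rise of any member on average, 1.48-fold (log2 change 0.57, SE 0.0173, adjusted p = 2.28e-22). It is a small accessory subunit of the matrix arm. In HT29 it had 91.2, 90.1 and 90.1 RPKM with JQ1 and 51.8, 48.02 and 48.9 RPKM with DMSO. In HCT15, the smallest rise, it had 61.2, 60.99 and 58.1 RPKM with JQ1 and 48.5, 48.9 and 49.1 RPKM with DMSO. All JQ1 libraries lay above the DMSO libraries of their line. NDUFV3, an accessory subunit beside the flavin site, rose by 0.23 to 0.55 on the log2 scale over the lines, with 31.04, 32.8 and 29.6 RPKM with JQ1 and 20.5, 20.9 and 21.8 RPKM with DMSO in SW480. NDUFV1, the core subunit that binds NADH and the flavin itself, was not called on average (adjusted p = 0.9), with calls up in 3 lines and down in 2, but was called higher with quantile scaling (log2 change 0.0343, adjusted p = 0.007). NDUFB2 rose by 0.22 on average, and an antisense RNA, NDUFB2-AS1, lies at its locus at 5.71 to 11.9 RPKM. The sources used here do not state whether the libraries keep strand, so reads of such pairs cannot be told apart.

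**Figure D2:**
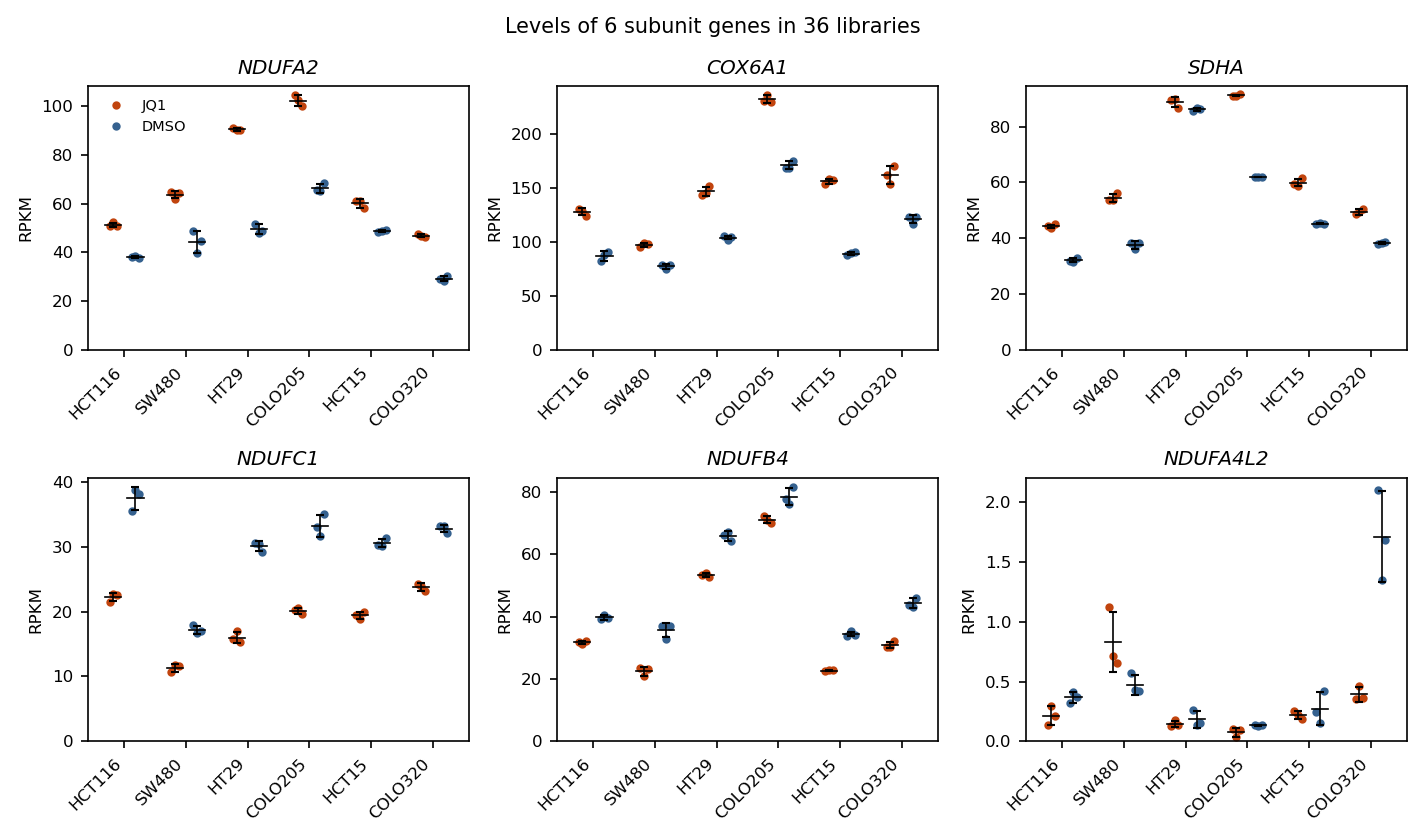
RPKM in each of the 36 libraries (points) of 6 subunit genes by cell line, with JQ1 left of DMSO in each line; bars are the mean and SD of 3 libraries, and each axis starts at 0. NDUFA2 and COX6A1 are higher with JQ1 in all 6 lines, NDUFC1 and NDUFB4 lower in all 6, SDHA higher in 5 with overlapping groups in HT29, and NDUFA4L2 stays near or under 2 RPKM with its widest gap in COLO320. NDUFA4L2 passed the filter only through the COLO320 DMSO libraries and an SW480 JQ1 library, so that gap was built into its entry.

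Complex II, succinate dehydrogenase, is built from nuclear genes alone, and its 4 members split. SDHA, the flavoprotein that oxidises succinate, rose 1.31-fold on average (log2 change 0.39, SE 0.009, adjusted p = 2.06e-25). SDHB, the iron-sulfur subunit that takes the electrons on, was 1.13-fold lower on average (log2 change -0.17, SE 0.00975, adjusted p = 6.69e-16). In COLO205 SDHA had 90.9, 91.00 and 91.5 RPKM with JQ1 and 62.00, 62.1 and 61.8 RPKM with DMSO. SDHB there had 85.2, 86.6 and 84.9 RPKM with JQ1 and 95.4, 96.8 and 96.8 RPKM with DMSO. The groups stood apart for both genes, in opposite directions.

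HT29 differed for SDHA, with 89.6, 90.03 and 86.6 RPKM with JQ1 and 85.7, 86.7 and 86.2 RPKM with DMSO. The groups there overlapped and the change of SDHA was not called (log2 change 0.04, adjusted p = 0.0935), but it was called without HT29 JQ1 replicate 3 (adjusted p = 0.0309), with quantile scaling (0.00748), with median centring (0.0293) and with voom (0.02). HT29 also had the highest SDHA level with DMSO of the 6 lines. The membrane anchors SDHC and SDHD had average log2 changes of 0.07 and -0.19. SDHD was called lower in 5 lines and SDHC higher in 3 and lower in 1. The summed level of the 4 genes was higher with JQ1 without overlap in SW480 (ratio 1.08) and COLO205 (1.07), lower without overlap in HCT116 (0.923), and overlapped in the other 3 lines. With total reads as divisor HT29 (0.929) and HCT15 (0.906) were also lower without overlap. Tested by cell line, SDHA had an adjusted p of 0.00967, SDHB 0.064, SDHC 0.425 and SDHD 0.0503. Pseudogenes of SDHA are in the table, SDHAP4 at 2.64 to 11.1 RPKM, and the sources used here do not state how reads were shared with them.

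Complex III had 3 members higher and 4 lower of 9 on average, beside 40.2% of all genes higher and 48.3% lower. Its median log2 change was -0.01, and by cell line 0 were higher and 1 lower. Another nuclear-encoded subunit of complex III, cytochrome c1 (CYC1), lies outside the names that define the members and is described with cytochrome c. UQCR10, a small subunit, fell in every line, with 36.1, 37.5 and 35.3 RPKM with JQ1 and 48.99, 49.3 and 51.5 RPKM with DMSO in SW480 (average log2 change -0.31, SE 0.0136, adjusted p = 1.66e-18). UQCRFS1, the Rieske iron-sulfur protein, had 10.03, 9.78 and 9.28 RPKM with JQ1 and 14.6, 14.3 and 12.9 RPKM with DMSO in COLO205. In HCT116 and SW480 the groups of UQCRFS1 overlapped, with log2 changes of -0.04 (adjusted p = 0.651) and 0.03 (adjusted p = 0.681). UQCRQ, a small subunit, was called higher in every line but HCT116 (average log2 change 0.18). The core protein UQCRC1 rose in 5 lines and fell in SW480, where it had 180.0, 184 and 183 RPKM with JQ1 and 195, 186 and 194 RPKM with DMSO, groups that did not overlap (log2 change -0.07, adjusted p = 0.00394). The fall in SW480 was not called with median centring (adjusted p = 0.0804). The other core protein, UQCRC2, was called higher in 4 lines and lower in HCT116 and HT29. UQCRH, the hinge protein, and UQCRHL, a near-identical copy, had average log2 changes of -0.08 and -0.09, and the division of reads between them is uncertain.

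Complex IV, cytochrome c oxidase, had more rises than falls, by a margin that depended on the divisor. Of its 14 nuclear members 8 rose and 2 fell on average, beside 40.2% of all genes higher and 48.3% lower. The counts were 7 and 5 with total reads as divisor, 9 and 5 with quantile scaling, and 3 and 0 by cell line. The falls included NDUFA4L2, which is near the filter. A filter of 5 RPKM left out NDUFA4L2 and COX6B2, and 8 of 12 members rose and 1 fell, with a median log2 change of 0.11. The 14 genes had a median log2 change of 0.06 on average, which stayed between 0.04 and 0.12 under the other scalings. The summed level of these genes was higher with JQ1 in each line, without overlap. In HT29 the sums were 2422, 2463 and 2431 RPKM with JQ1 and 2205, 2248 and 2203 RPKM with DMSO, the largest ratio (1.10). HCT116 had 1989, 1965 and 1976 RPKM with JQ1 and 1866, 1894 and 1932 RPKM with DMSO, the smallest (1.04). With total reads as divisor the sums of JQ1 and DMSO libraries overlapped in HCT116 (ratio 1.02) and HCT15 (1.00), and the 4 other lines kept the direction without overlap.

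COX6A1, the form of subunit VIa found outside heart and muscle, rose 1.42-fold on average (log2 change 0.51, SE 0.0135, adjusted p = 8.21e-24). HCT15 had 154, 158 and 158 RPKM with JQ1 and 87.99, 89.8 and 90.4 RPKM with DMSO. SW480 had 95.7, 99.02 and 97.9 RPKM with JQ1 and 79.04, 74.9 and 78.6 RPKM with DMSO. The groups stood apart in all 6 lines, most widely in HCT15 and least in SW480. COX6C and COX7A2, small membrane subunits, rose by 0.23 and 0.23 on average. COX8A, another small membrane subunit, was called higher in 5 lines and reached 405 ± 3.83 RPKM with JQ1 against 389 ± 9.74 RPKM with DMSO in HT29, the line where it was not (adjusted p = 0.0911). COX4I1, the main form of subunit IV, had an average log2 change of 0.01 (adjusted p = 0.384). It was called lower with total reads as divisor (-0.0295, adjusted p = 0.000439) and with quantile scaling (-0.0308, adjusted p = 0.000557). COX6B1, at -0.01 (adjusted p = 0.294), was likewise not called. COX7B, a small subunit, was lower in 4 lines and higher in SW480, and COX7A2L, a factor of supercomplex assembly, was called higher in 3 lines and lower in COLO205.

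The tissue-restricted forms were rare in all lines. NDUFA4L2 is the paralog of the complex IV subunit NDUFA4 that is known to be induced by hypoxia. In COLO320 it had 0.351, 0.463 and 0.361 RPKM with JQ1 and 2.11, 1.35 and 1.69 RPKM with DMSO. The log2 change of -1.30 was the widest of any member in any line. NDUFA4L2 passed the filter only through those 3 DMSO libraries and SW480 JQ1 replicate 1, so a difference in COLO320 was built into its entry. Its call there, among the 33 falls counted in COLO320, is therefore no support for a fall. In SW480 it had 1.12, 0.716 and 0.654 RPKM with JQ1 and 0.568, 0.43 and 0.423 RPKM with DMSO, the other way round. NDUFA4 itself was higher in COLO320, at 44.2, 44.1 and 41.96 RPKM with JQ1 and 32.3, 31.7 and 32.5 RPKM with DMSO. The testis form COX6B2 passed the filter only through the 3 SW480 JQ1 libraries, with 1.79, 2.20 and 1.54 RPKM with JQ1 and 0.721, 0.803 and 0.929 RPKM with DMSO. A rise in SW480 was therefore built into its entry, and its call is among the 25 rises counted there. In COLO205 COX6B2 had 0.0726, 0.0243 and 0.159 RPKM with JQ1 and 0.492, 0.417 and 0.388 RPKM with DMSO, below the filter in all 6 libraries. The heart and muscle forms COX6A2 and COX7A1, and COX4I2, COX7B2 and COX8C, were under the filter throughout.

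In ATP synthase 4 of 17 members rose and 10 fell on average, beside 40.2% of all genes higher and 48.3% lower. Their median log2 change was -0.06. The summed level of the 17 genes was lower with JQ1 without overlap in COLO205 (2967, 2957 and 2898 RPKM with JQ1 and 3306, 3247 and 3220.0 RPKM with DMSO, ratio 0.903), HCT15 (0.968) and COLO320 (0.976), and overlapped in the other 3 lines. With total reads as divisor HCT116 (0.979) and HT29 (0.939) were also lower without overlap, HCT15 had a ratio of 0.889, and 3 genes rose and 13 fell on average (median log2 change -0.10). Subunit c forms the proton-carrying ring of the membrane motor, and 3 genes encode the same mature protein. ATP5MC1 fell 1.63-fold on average, the largest fall of any member (log2 change -0.70, SE 0.0137, adjusted p = 4.59e-27, and 0.00526 by cell line). HT29 had 46.04, 49.1 and 48.1 RPKM with JQ1 and 101, 103 and 92.96 RPKM with DMSO. COLO205 had 126, 125 and 126 RPKM with JQ1 and 242, 239 and 242 RPKM with DMSO. SW480 had 67.4, 66.3 and 68.6 RPKM with JQ1 and 70.5, 67.1 and 72.5 RPKM with DMSO. The groups were far apart in HT29 and COLO205 and overlapped in SW480, where the change was -0.05 on the log2 scale (adjusted p = 0.146). It was called in SW480 without SW480 DMSO replicate 2 (adjusted p = 0.036) and with total reads as divisor (adjusted p = 0.0443). The size of the ATP5MC1 change differed between lines (F test over the 6 lines, adjusted p = 3.99e-16).

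ATP5MC2 fell by 0.27 on average and was called in every line but SW480, while ATP5MC3 had an average of 0.01 (adjusted p = 0.575), called higher in HCT116 and SW480 and lower in COLO205. With total reads as divisor ATP5MC3 was called lower on average (log2 change -0.0308, adjusted p = 0.00154). In HCT116 ATP5MC2 had 72.5, 70.7 and 71.3 RPKM with JQ1 and 99.9, 97.4 and 98.3 RPKM with DMSO, and ATP5MC3 had 78.2, 77.5 and 78.2 RPKM with JQ1 and 73.8, 72.5 and 73.3 RPKM with DMSO. The sum of the 3 subunit c genes was lower with JQ1 in 5 lines, at 0.671 to 0.830 of the DMSO mean, with no overlap. In COLO205 the sums were 313, 318 and 313 RPKM with JQ1 and 474, 465 and 468 RPKM with DMSO. SW480 had sums of 212, 205 and 209.6 RPKM with JQ1 and 209.5, 205 and 215 RPKM with DMSO, which overlapped (ratio 0.997). SW480 was also the line in which MYC moved least (log2 change -0.14, against -1.35 in HT29 and -1.23 in COLO205), and whether the changes are linked was not tested.

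**Figure D3:**
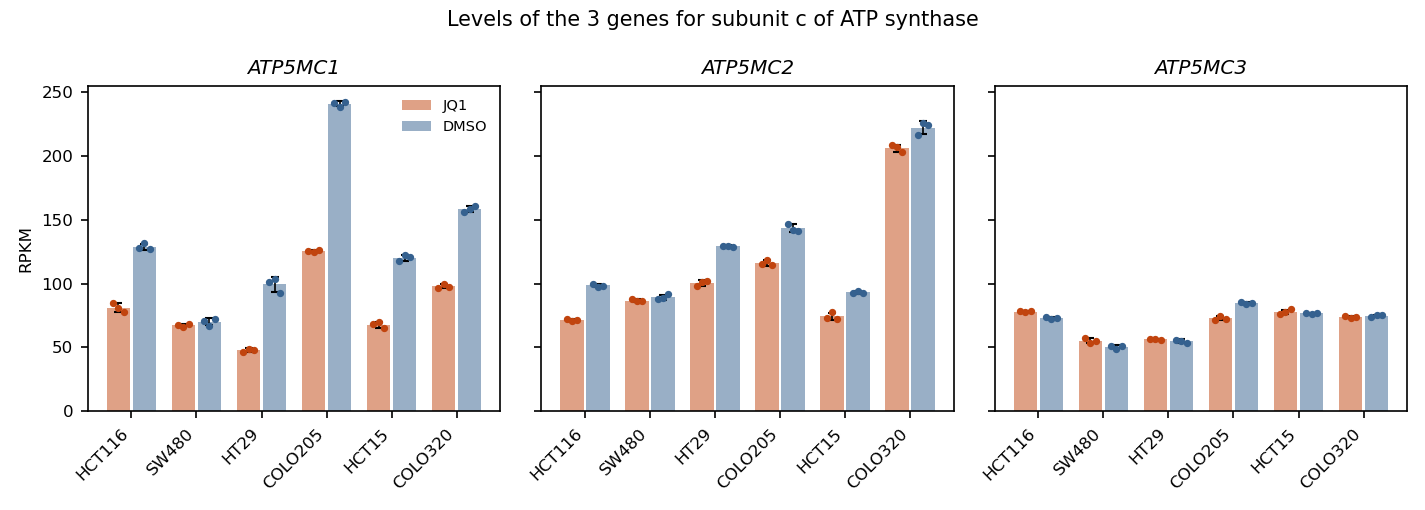
RPKM of the 3 genes for subunit c of ATP synthase in each cell line, with JQ1 left of DMSO; bars are means of 3 libraries with SD, points are libraries, and the 3 panels share an axis that starts at 0. ATP5MC1 is lower with JQ1 in 5 lines and overlaps in SW480, ATP5MC2 falls less on average, and ATP5MC3 stays within 15 RPKM of its DMSO mean in each line.

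The F1 head of ATP synthase held rises and falls side by side. ATP5F1A, the alpha subunit, rose in every line, with 341, 323 and 335 RPKM with JQ1 and 269.5, 266 and 275 RPKM with DMSO in HCT116 (average log2 change 0.20, SE 0.00807, adjusted p = 2.74e-19). With quantile scaling ATP5F1A was not called higher in every line. Its partner in the catalytic hexamer, the beta subunit ATP5F1B, was called higher in HCT116 and SW480 and lower in HT29 and COLO205. With quantile scaling ATP5F1B was called lower in HCT116 (log2 change -0.1121, adjusted p = 3.56e-05) and in COLO320 (-0.1264, adjusted p = 6.19e-06). ATP5F1D, the delta subunit of the central stalk, had 65.02, 64.5 and 60.96 RPKM with JQ1 and 110.3, 100.2 and 112 RPKM with DMSO in HT29. In COLO205 it had 50.6, 50.6 and 50.4 RPKM with JQ1 and 53.6, 51.9 and 57.5 RPKM with DMSO, groups that stood apart although the change was not called (adjusted p = 0.0576). ATP5F1E, the epsilon subunit, rose by 0.19 on average, and a pseudogene of it, ATP5F1EP2, was in the table at 21.6 to 66.1 RPKM.

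The peripheral stalk, which holds the head still, was also divided. ATP5PD, subunit d, rose in every line, with 184, 192 and 183 RPKM with JQ1 and 139, 138 and 132 RPKM with DMSO in HCT15 (average log2 change 0.33, SE 0.0126, adjusted p = 3.9e-20). ATP5PB, subunit b, fell in every line, with 55.4, 56.3 and 59.4 RPKM with JQ1 and 76.2, 75.6 and 75.1 RPKM with DMSO in HT29 (average log2 change -0.30, SE 0.0114). ATP5PF and ATP5PO, the coupling factor and the oligomycin sensitivity protein, had averages of -0.19 and -0.06. Of the small membrane subunits, ATP5ME (subunit e) fell in every line, by 0.27 on average, and ATP5MK, known to help dimers form, fell in 5. COLO205 had the widest ATP5MK gap, 42.95, 43.1 and 43.6 RPKM with JQ1 and 76.3, 65.4 and 67.9 RPKM with DMSO. ATP5MG (subunit g) had an average log2 change of 0.03 (adjusted p = 0.0117), which turned to -0.0025 with total reads as divisor.

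The lines did not answer alike, for members as for most genes tested. The size of the JQ1 change differed between lines for 77 of 81 members (F test, adjusted p under 0.05), against 93.3% of genes tested. Of the 81 members, 40 had 1 sign in all 6 lines, against 37.9% of genes tested, and 27 had a called rise in at least 1 line and a called fall in another, against 33.6% of genes tested. ATP5F1B had the smallest adjusted p of this test (5.52e-19). It had 467, 465 and 452 RPKM with JQ1 and 621, 611 and 616 RPKM with DMSO in COLO205. In SW480 it had 610.4, 603 and 619 RPKM with JQ1 and 519.9, 520.3 and 533 RPKM with DMSO. The groups stood apart in both, in opposite directions. NDUFA12, an accessory subunit of the matrix arm, had 98.1, 97.5 and 89.9 RPKM with JQ1 and 149, 142 and 157 RPKM with DMSO in SW480, and 73.9, 76.6 and 78.6 RPKM with JQ1 and 65.9, 64.6 and 62.7 RPKM with DMSO in HT29 (adjusted p of the F test = 1.42e-14).

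NDUFS1, the largest iron-sulfur core subunit of complex I, fell in HT29, with 36.8, 38.8 and 37.6 RPKM with JQ1 and 51.9, 55.03 and 52.2 RPKM with DMSO, and in SW480 and COLO205. It was called higher in HCT116, HCT15 and COLO320, by 0.09 to 0.11 on the log2 scale, a rise that was lost in HCT15 without HCT15 DMSO replicate 1 (adjusted p = 0.055) and turned there with total reads as divisor (log2 change -0.03). NDUFB10, a membrane arm subunit, fell in HCT15, with 82.5, 83.98 and 83.6 RPKM with JQ1 and 131, 134 and 131 RPKM with DMSO, and in COLO320, with 112, 108 and 118 RPKM with JQ1 and 172, 169.7 and 174 RPKM with DMSO. In SW480 and HT29 its groups overlapped, with log2 changes of -0.05 (adjusted p = 0.286) and -0.06 (adjusted p = 0.143), though it was called in SW480 without SW480 DMSO replicate 2 (adjusted p = 0.0248) and in HT29 without HT29 JQ1 replicate 2 (adjusted p = 0.0439) or with total reads as divisor (adjusted p = 0.00243). The F test gave an adjusted p of 2.36e-13 for NDUFS1 and 1.96e-12 for NDUFB10.

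Levels with DMSO differed between lines for all 81 members (F test over the 6 DMSO groups, adjusted p under 0.05), against 98.8% of genes tested. NDUFB9, a membrane arm subunit, had the widest range, 4.44-fold on the scale with 0.5 added. It had 445, 454 and 444 RPKM in HT29 and 102, 99.1 and 101 RPKM in COLO320, both with DMSO. NDUFB8 had 149.6, 148 and 154 RPKM in HCT116 and 38.6, 40.1 and 39.2 RPKM in SW480. NDUFA4L2, ATP5MC1, NDUFA12, NDUFS4, ATP5F1A and COX7C followed, with ranges of 2.99-fold to 3.46-fold. NDUFA4L2, the member with the lowest median, passed the filter only through the COLO320 DMSO libraries and an SW480 JQ1 library. A difference between its DMSO groups was therefore built into its entry. SW480 had the lowest DMSO level of ATP5MC1, 70.1 ± 2.73 RPKM, and COLO205 the highest, 241 ± 1.83 RPKM (SD, n = 3). NDUFV1 varied least, 1.35-fold, between 76.8 ± 2.63 RPKM in HCT116 and 104 ± 1.73 RPKM in HT29.

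The 13 subunits encoded by mitochondrial DNA moved in 1 direction. All 13 were called higher on average, against 40.2% of genes tested, with a median log2 change of 0.34. In single lines 13 were called higher in HCT116 and COLO205 (32.4% and 34.2% of genes tested), 12 in HCT15 (34.8%) and 11 in HT29 (36.6%). COLO320 had 9 of 13 (31.0%) and SW480 4 of 13 (33.9%), the latter near the share of all genes. Their summed level in COLO205 was 37104, 36835 and 39902 RPKM with JQ1 and 26520, 28154 and 24729 RPKM with DMSO. The ratio to DMSO ran from 1.10 in SW480 to 1.43 in COLO205 and the groups did not overlap in any line, although with total reads as divisor they overlapped in SW480 (ratio 1.09). Over the 81 nuclear members the ratio of sums was 0.968 to 0.997. The groups overlapped in HCT116, SW480 and HT29 and were lower with JQ1 without overlap in COLO205, HCT15 and COLO320. With total reads as divisor the ratio was 0.899 to 0.985, lower without overlap in every line but SW480. The difference between the nuclear and the mitochondrial set was not tested.

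**Figure D4:**
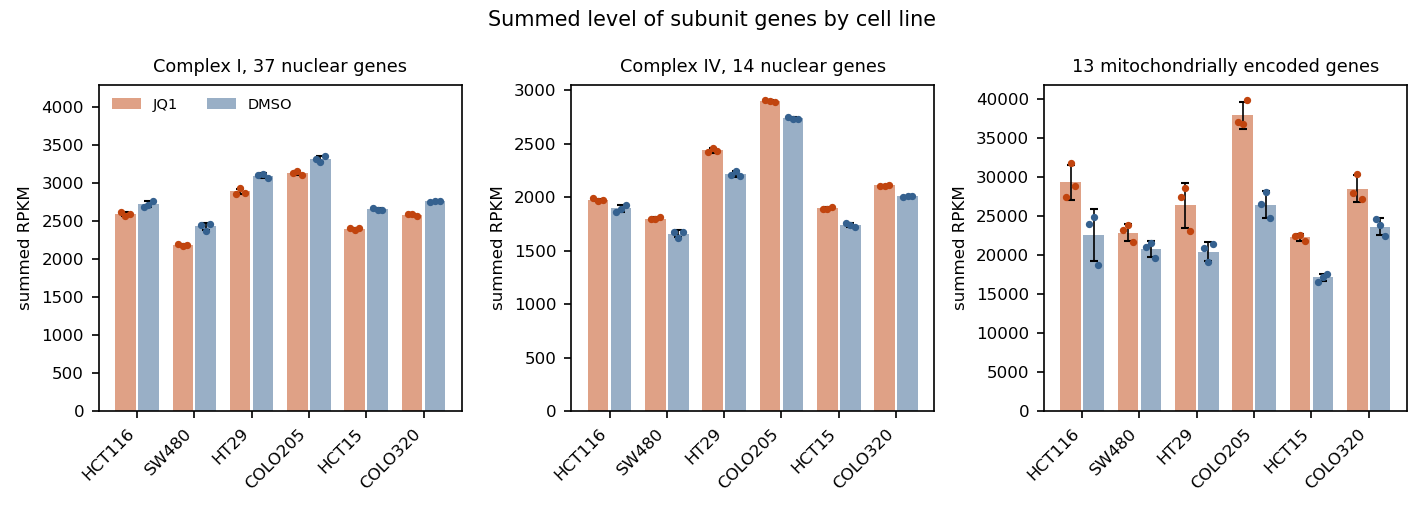
Summed RPKM of the 37 nuclear subunit genes of complex I, the 14 of complex IV and the 13 mitochondrially encoded subunit genes, by cell line, with JQ1 left of DMSO; bars are means of 3 libraries with SD, points are libraries, and each axis starts at 0. Complex I sums are lower with JQ1 and complex IV and mitochondrial sums higher in each of the 6 lines.

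Most genes of 3 lists that serve the chain without being part of it fell. Of 19 complex I assembly factors 4 rose and 13 fell on average (median log2 change -0.30), led by NDUFAF6 (-0.77), NDUFAF4 (-0.63) and NDUFAF5 (-0.62), while NDUFAF3 (0.51) and TIMMDC1 (0.29) rose. Of 40 genes listed for assembly of complexes II to V, among them the ATP synthase inhibitor ATP5IF1, 7 rose and 25 fell (median -0.17). The complex IV assembly factors COA6 (-1.17) and COA7 (-1.13) fell most, and SURF1 (0.79), another complex IV factor, rose. Of 21 regulators of mitochondrial biogenesis 2 rose and 17 fell (median -0.26), with the coactivators PPRC1 (-0.77) and PPARGC1B (-0.77) and GABPB2 (-1.02), a partner of the ETS factor GABPA, falling most. The mitochondrial DNA polymerase POLG rose (0.56), the transcription factor TFAM fell by 0.22, and NRF1 was at -0.05. The complex III subunit CYC1 (-0.42) fell on average and in every line. The electron carrier cytochrome c (CYCS, -0.18) and the enzyme that joins heme to it (HCCS, -0.14) fell on average. Of 17 genes of the citric acid cycle and of pyruvate dehydrogenase 7 rose and 9 fell (median -0.05), with OGDH highest (1.02). These shares read against 40.2% of all genes called higher and 48.3% called lower, and the lists were not tested against each other.

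**Figure D5:**
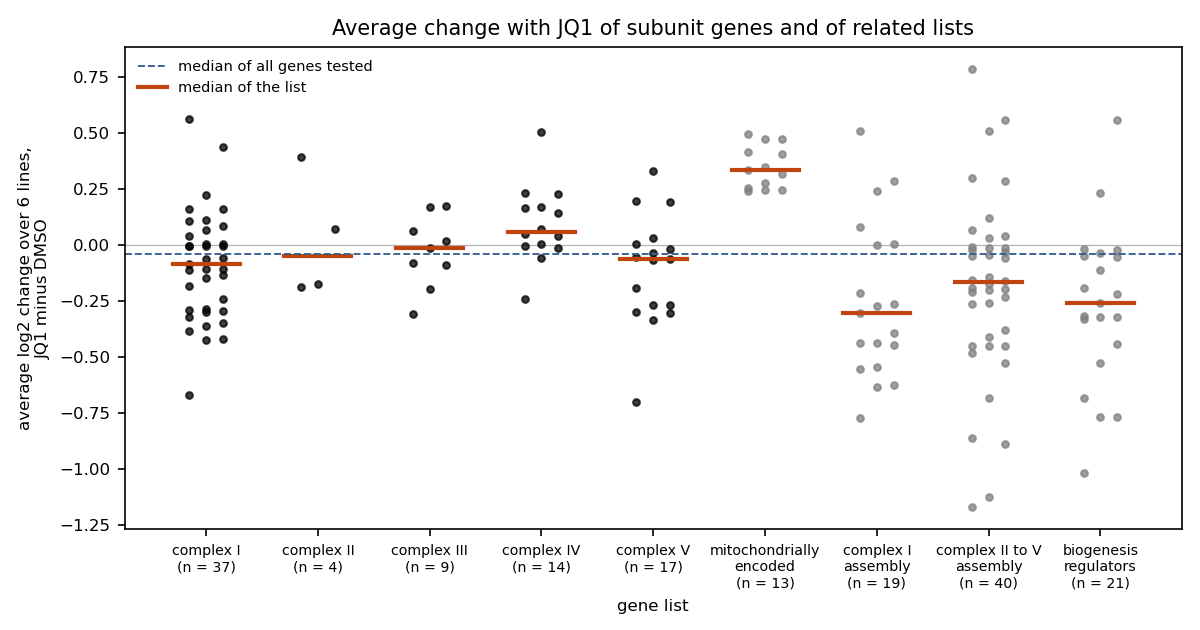
Average log2 change over the 6 lines, JQ1 minus DMSO, of each gene (points) of the 5 complexes (black) and of 4 related lists (grey); the thick line is the median of a list and the dashed line the median of all genes tested (-0.04). Complex medians lie between -0.09 and 0.06, the 13 mitochondrially encoded genes lie above 0.2, and the assembly factors and regulators have medians of -0.30 to -0.17.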

How the data were processed

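RNA was sequenced from 36 libraries, 3 for each of 6 cell lines with JQ1 and with DMSO. The labels' protocols name a TruSeq RNA kit and log-phase cells. No label ties replicates to separate cultures, so p-values reflect the spread among these libraries alone, which may be technical. The authors deposited RPKM per gene. GSNAP, DESeq and limma are named without version in the submitters' processing notes, as is NCBIM37, which names a mouse assembly, although gene identifiers are human Entrez numbers. Each of 36 columns was matched to its sample (0 unmatched). Symbols and promoter sequences came from RefSeq tables (GRCh38.p14), which named 24519 of 26468 genes.

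Whole reads were recovered, within 0.01 read, from the steps between RPKM values for 23499 of 23499 genes above 0 (100%), giving 18.8 to 53.1 M reads per library and a median of 24.5 M. Chi-square per gene between replicates was 1.22 to 3.2 over 36 pairs, so none was counted as a repeat. Same-numbered JQ1 and DMSO libraries did not deviate together, and no pairing was used.

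Genes with at least 1 RPKM in 3 libraries were fitted as log2(RPKM + 0.5) to 12 group means with limma 3.58.1 (R 4.3.3), with 24 residual and 2.97 prior degrees of freedom. The fit was tested on simulated data. Tables used Python 3.11.15, pandas 2.3.3 and numpy 2.4.6. Named in the text are complex II and the paralog sets, up to 4 rises and 4 falls per complex among called members, 3 of each per line, the 8 members with the smallest p between lines and the 8 with the widest DMSO range. Other members named there were chosen after their values were seen, and 1 member that the rule names is not reported here by itself. The members, lists and tests were chosen with earlier results of these data known. Alternatives covered the pseudocount, the filter, the divisor, centring, quantile scaling, voom on recovered reads, a replicate block, lines fitted alone, the cell line as the unit and each library left out.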

Additional observations from a re-analysis of the deposited data

Results flagged for a closer look

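The change with JQ1 differed between the 6 lines, by the F test of the 5 differences over all genes with Benjamini-Hochberg adjustment in limma, for 77 of 81 members, against 93.3% of genes tested. For the 8 members with the smallest adjusted p, the distance between the highest and the lowest log2 change over the lines was 0.64 for ATP5F1B (adjusted p = 5.52e-19), 0.99 for ATP5MC1 (3.99e-16), 0.89 for NDUFA12 (1.42e-14), 0.57 for NDUFA9 (2.11e-14), 0.51 for SDHA (4.82e-14), 0.60 for NDUFS1 (2.36e-13), 0.44 for UQCRC1 (4.39e-13) and 0.61 for NDUFB10 (1.96e-12). SW480 held an end of that range for 6 of the 8: the highest change of ATP5F1B, ATP5MC1 and NDUFB10 and the lowest of NDUFA12, NDUFA9 and UQCRC1. For SDHA and NDUFS1 the lowest change was in HT29.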

How the results depend on the processing

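With the cell line as the unit 10 members were called higher and 18 lower on average, in place of 27 and 39. That setting takes in the spread of the change between lines, which the main test of the average leaves out. It also has fewer degrees of freedom. Over all 81 members, the other counts of calls, on average, by line and in every line, stayed within 1.5 times their main value; counts within single complexes moved more. With a replicate block, which the numbers did not earn (18 same-numbered pairs, r of -0.148 to 0.0492, and 6 of 18 JQ1 libraries closest to their own number), 27 members were called higher and 39 lower on average and 76 differed between lines; it added a call of SDHA in HT29 (adjusted p = 0.0487). Leaving out 1 library gave 26 to 28 higher and 39 to 41 lower on average, and 75 to 78 differing between lines.

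The median change over members moved by more than the replicate spread with total reads as divisor on average (-0.0552), in HCT116 (-0.0611), HT29 (-0.0633), COLO205 (-0.0537) and HCT15 (-0.1577). It moved with median centring in SW480 (-0.0063), COLO205 (-0.0424) and COLO320 (0.0144), with a filter of 5 RPKM in COLO205 (-0.0476), and with quantile scaling in COLO205 (0.0305), HCT15 (-0.1173) and COLO320 (0.0178). Without 1 library it ran from -0.079 to -0.0541 in COLO205. Signs turned with total reads as divisor for ATP5MC3 (-0.0308), ATP5MG (-0.0025) and COX4I1 (-0.0295) on average and NDUFS1 in HCT15 (-0.0316), and with quantile scaling for COX4I1 (-0.0308) and NDUFV1 (0.0343) on average and ATP5F1B in HCT116 (-0.1121) and COLO320 (-0.1264). The turned values were called for ATP5MC3, COX4I1, NDUFV1 and ATP5F1B; the cause was not tested.

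Depth limits COX6B2 and NDUFA4L2, the members with the lowest RPKM. Near-copies, read-through loci and antisense genes limit UQCRH, NDUFC2, ATP5MF and NDUFB2.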
